A study of Homo sapiens with 17 samples.

Results

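The 10 genes described here are SLC5A12, LCNL1, ERVFRD-1, CARD16, OLR1, ALOX5, FPGT, CSF3R, CHI3L1 and SLC47A1, out of 20218 genes in a table of RNA levels. They were chosen by their mean level, which was higher in GFP+mCherry+ cells than in GFP-mCherry+ and in GFP-mCherry- cells, at day 40 and at day 25 of differentiation. None of them is a classical gene of heart pacemaker cells. All 10 passed the filter used for testing, at least 1 FPKM (fragments per kilobase of transcript, scaled to the number of mapped fragments) in at least 2 libraries, which left 14845 genes. FPGT passed it only through GFP+mCherry+ libraries.

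The 17 libraries came from an H9 human embryonic stem cell line whose label names SHOX2, differentiated in culture and sorted by GFP and mCherry fluorescence. At day 40 there were 2 GFP+mCherry+ libraries, 3 GFP-mCherry+ libraries and 3 GFP-mCherry- libraries, and at day 25 there were 3 libraries of each population. In the labels' protocols all cultures received CHIR99021, BMP4 and Activin A and later XAV939. The sinoatrial procedure also used cucurbitacin, retinoic acid, SU5402, Tyrphostin AG 490 and the deacetylase inhibitor chidamide. Which procedure gave each population, which gene drives mCherry and whether a group's libraries are separate cultures are not given in the labels, so p-values measure only the spread between these libraries. Every library carries the same cell type label, sinoatrial node-like cells, and all descend from a single cell line.

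The labels were checked on genes outside the 10. SHOX2, the pacemaker transcription factor that names the line, had 58.5 and 90.2 FPKM in GFP+mCherry+ cells at day 40, against 1.39 to 2.41 FPKM in GFP-mCherry+ cells and 0.253 to 1.32 FPKM in GFP-mCherry- cells. The summed level of 14 cardiomyocyte markers at day 40 was 8497 to 14030 FPKM in GFP+mCherry+ cells, 26980 to 41330 FPKM in GFP-mCherry+ cells and 853.3 to 4071 FPKM in GFP-mCherry- cells. TNNT2, a sarcomere troponin, averaged 2335 ± 219 FPKM in GFP+mCherry+ cells (SD, n = 2), 6445 ± 902 FPKM in GFP-mCherry+ cells and 376.5 ± 363.5 FPKM in GFP-mCherry- cells (SD, n = 3 each). Library sums lay between 566029 and 660085 FPKM. Read depth is unknown, since only FPKM were used. In bulk samples fewer cells of a type and less RNA per cell cannot be told apart.

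As background, the sinoatrial node is the small tissue in the right atrium that starts each heartbeat. The 10 genes belong to other settings. ALOX5, CSF3R, OLR1, CHI3L1 and CARD16 are best known from myeloid and inflamed cells, where leukotrienes, colony-stimulating factors and inflammasomes act. SLC5A12 and SLC47A1 are membrane transporters best known in kidney tubules, and ERVFRD-1 is an envelope gene of an ancient retrovirus that fuses placental trophoblast cells. FPGT charges fucose released from glycans for reuse, and LCNL1 is a little-studied relative of the lipocalins, which carry small lipophilic molecules.

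Start-site sequence is shown for the 3 genes whose loci or seeming myeloid identity the results below turn on. The letters come from RefSeq on GRCh38.p14, 250 bases before to 50 bases after the annotated start, and 5 of the 10 genes had an entry, with 2 starts for CSF3R. ERVFRD-1, CARD16, OLR1, ALOX5 and SLC47A1 are named only. Capitals mark the motifs TATAAA and GGAAGT, each searched on both strands; the TATA box motif stood in 11.5% of 35116 RefSeq promoters of this length and GGAAGT, a core bound by ETS-family factors, in 22.8%. In CHI3L1 the motifs adjoin without overlap, and in FPGT neither was found.
FPGT, chr1:74197992-74198291, plus strand: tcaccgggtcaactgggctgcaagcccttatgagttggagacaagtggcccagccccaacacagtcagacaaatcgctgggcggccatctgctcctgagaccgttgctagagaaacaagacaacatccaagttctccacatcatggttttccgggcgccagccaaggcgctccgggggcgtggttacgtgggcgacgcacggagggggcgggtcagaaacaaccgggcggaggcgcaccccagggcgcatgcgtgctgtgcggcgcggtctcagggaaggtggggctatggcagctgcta
CSF3R, chr1:36483265-36483564, minus strand: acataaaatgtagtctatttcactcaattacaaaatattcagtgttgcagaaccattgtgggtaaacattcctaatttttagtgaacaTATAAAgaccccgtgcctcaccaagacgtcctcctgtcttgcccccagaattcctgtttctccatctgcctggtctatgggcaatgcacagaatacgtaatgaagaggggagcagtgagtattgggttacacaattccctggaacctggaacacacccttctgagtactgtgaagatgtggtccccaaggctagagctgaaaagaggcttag
CHI3L1, chr1:203186655-203186954, minus strand: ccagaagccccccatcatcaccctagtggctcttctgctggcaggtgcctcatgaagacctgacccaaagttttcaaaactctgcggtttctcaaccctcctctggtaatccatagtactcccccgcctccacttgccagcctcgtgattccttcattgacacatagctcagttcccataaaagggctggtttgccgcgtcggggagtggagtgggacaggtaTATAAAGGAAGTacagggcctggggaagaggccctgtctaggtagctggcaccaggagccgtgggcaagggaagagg
TAATTA, a core of homeodomain factors held by 4.84% of promoters, and TTGCNNCAA, a core of C/EBP factors held by 1.98%, were found in none of the 6 start windows of SLC5A12, LCNL1, FPGT, CSF3R and CHI3L1. The other start window of CSF3R and those of SLC5A12 and LCNL1 held none of the 4 motifs. A match or its absence describes these letters only.

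The levels that chose the genes are given as a description, without a test. Each of the 10 genes had every GFP+mCherry+ library above every library of the other populations on the same day. Over all tested genes this held for 10.4% at day 40 and for 5.8% at day 25, and the choice of the genes largely fixed it. Over both days together it held for 6 of the 10, LCNL1, ERVFRD-1, FPGT, CSF3R, CHI3L1 and SLC47A1, and for 0.95% of tested genes. The rule on means was met by 2932 tested genes, 19.8%, so the 10 are a chosen few of them. C9orf96 and RBM22 lay just inside it, with smallest ratios of the means of 1.00003 and 1.00005, and BRI3 and LRRC23 just outside, with 0.9999 and 0.99978. Among the 10 the smallest ratio ranged from 3.62 in CHI3L1 to 40.2 in FPGT, which ranked 1 of the tested genes with a finite ratio. The ratios of FPGT divide by means of only 0.0267 to 0.150 FPKM. Ratios and rank use the means that chose the genes, so they only describe the choice.

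**Figure D1:**
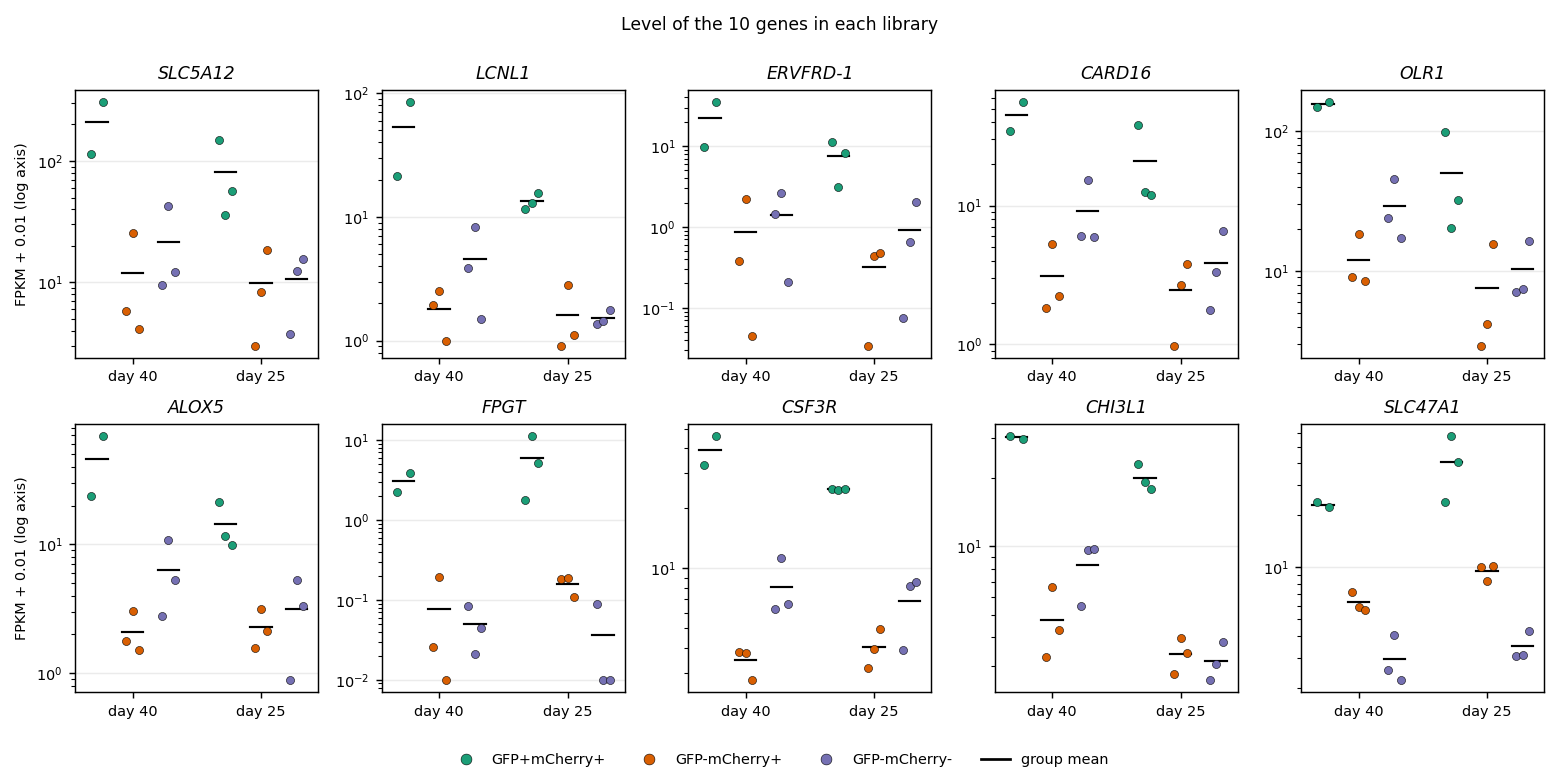
FPKM of each of the 10 genes in every library (log axis; a small constant added so that values listed at 0 can be drawn), with a bar at each group mean. GFP+mCherry+ libraries stand above the other libraries of their day in all 10 panels, and FPGT has the widest gap.

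SLC5A12, a sodium-coupled transporter of lactate and other monocarboxylates, was the most abundant of the 10 in FPKM. At day 40 SLC5A12 had 113 and 304 FPKM in GFP+mCherry+ cells, 5.84, 25.7 and 4.12 FPKM in GFP-mCherry+ cells, and 9.56, 42.9 and 12.3 FPKM in GFP-mCherry- cells. At day 25 SLC5A12 had 149, 36.0 and 56.2 FPKM in GFP+mCherry+ cells, 3.00, 8.37 and 18.3 FPKM in GFP-mCherry+ cells, and 3.76, 12.5 and 15.7 FPKM in GFP-mCherry- cells. The lowest GFP+mCherry+ library of day 25 fell below the highest GFP-mCherry- library of day 40, so the populations overlapped across days. The spread within groups was wide, with means of 208.6 ± 134.9 FPKM at day 40 (SD, n = 2) and 80.4 ± 60.2 FPKM at day 25 (SD, n = 3) in GFP+mCherry+ cells.

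SLC47A1, a proton-coupled exporter of organic cations and many drugs, ran the other way between days. At day 40 SLC47A1 had 23.8 and 22.4 FPKM in GFP+mCherry+ cells, 7.21, 5.92 and 5.66 FPKM in GFP-mCherry+ cells, and 2.54, 4.05 and 2.23 FPKM in GFP-mCherry- cells. At day 25 SLC47A1 had 24.0, 57.4 and 40.8 FPKM in GFP+mCherry+ cells, 10.0, 8.38 and 10.2 FPKM in GFP-mCherry+ cells, and 3.07, 3.11 and 4.25 FPKM in GFP-mCherry- cells. The 3 populations did not overlap on either day, and the levels stepped down from GFP+mCherry+ to GFP-mCherry+ to GFP-mCherry- cells.

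FPGT was nearly silent outside GFP+mCherry+ cells. At day 40 FPGT had 2.20 and 3.84 FPKM in GFP+mCherry+ cells, 0.0160, 0.185 and 0 FPKM in GFP-mCherry+ cells, and 0.0737, 0.0110 and 0.0344 FPKM in GFP-mCherry- cells. At day 25 FPGT had 1.78, 11.1 and 5.20 FPKM in GFP+mCherry+ cells, and 0.174, 0.177 and 0.0984 FPKM in GFP-mCherry+ cells. In GFP-mCherry- cells of day 25 it had 0.0799 FPKM in library 3 and was listed at 0 in libraries 6 and 9. Its lowest GFP+mCherry+ library was 9.64 times its highest other library.

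ERVFRD-1 was likewise low elsewhere. At day 40 ERVFRD-1 had 9.70 and 34.8 FPKM in GFP+mCherry+ cells, 0.368, 2.20 and 0.0345 FPKM in GFP-mCherry+ cells, and 1.43, 2.59 and 0.201 FPKM in GFP-mCherry- cells. At day 25 ERVFRD-1 had 11.3, 3.10 and 8.31 FPKM in GFP+mCherry+ cells, 0.0240, 0.427 and 0.471 FPKM in GFP-mCherry+ cells, and 0.0649, 0.635 and 2.02 FPKM in GFP-mCherry- cells. GFP+mCherry+ libraries did not overlap the others over both days, while the GFP- populations overlapped each other, and the lowest GFP+mCherry+ library was 1.2 times the highest other library.

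LCNL1 was highest in library 13. At day 40 LCNL1 had 21.5 and 84.3 FPKM in GFP+mCherry+ cells, 1.92, 2.5 and 0.976 FPKM in GFP-mCherry+ cells, and 3.89, 8.32 and 1.48 FPKM in GFP-mCherry- cells. At day 25 LCNL1 had 11.5, 13.0 and 15.6 FPKM in GFP+mCherry+ cells, 0.900, 2.8 and 1.10 FPKM in GFP-mCherry+ cells, and 1.35, 1.44 and 1.74 FPKM in GFP-mCherry- cells. Within GFP+mCherry+ cells every library of day 40 lay above every library of day 25.

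Among the genes known from myeloid and inflamed cells, OLR1, a lectin-like receptor for oxidised low-density lipoprotein, had the highest FPKM. At day 40 OLR1 had 150.0 and 161 FPKM in GFP+mCherry+ cells, 9.12, 18.2 and 8.44 FPKM in GFP-mCherry+ cells, and 24.0, 45.6 and 17.3 FPKM in GFP-mCherry- cells. At day 25 OLR1 had 99.3, 20.1 and 32.3 FPKM in GFP+mCherry+ cells, 2.91, 4.19 and 15.5 FPKM in GFP-mCherry+ cells, and 7.08, 7.39 and 16.3 FPKM in GFP-mCherry- cells. Library 1 stood well above libraries 4 and 7, whereas the libraries of day 40 lay close together.

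ALOX5 is the lipoxygenase that starts leukotriene synthesis. At day 40 ALOX5 had 23.9 and 68.8 FPKM in GFP+mCherry+ cells, 1.77, 3.02 and 1.50 FPKM in GFP-mCherry+ cells, and 2.79, 10.9 and 5.25 FPKM in GFP-mCherry- cells. At day 25 ALOX5 had 21.5, 11.5 and 9.78 FPKM in GFP+mCherry+ cells, 1.57, 3.15 and 2.1 FPKM in GFP-mCherry+ cells, and 0.878, 5.29 and 3.30 FPKM in GFP-mCherry- cells. The lowest GFP+mCherry+ library of day 25 overlapped the highest GFP-mCherry- library of day 40.

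CARD16, a protein made of a caspase recruitment domain that binds caspase-1, showed the same overlap. At day 40 CARD16 had 34.3 and 55.5 FPKM in GFP+mCherry+ cells, 1.82, 5.25 and 2.23 FPKM in GFP-mCherry+ cells, and 6.04, 15.3 and 5.95 FPKM in GFP-mCherry- cells. At day 25 CARD16 had 38.3, 12.4 and 11.9 FPKM in GFP+mCherry+ cells, 0.968, 2.68 and 3.76 FPKM in GFP-mCherry+ cells, and 1.75, 3.32 and 6.52 FPKM in GFP-mCherry- cells. Library 1 was again far above libraries 4 and 7.

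CSF3R, the receptor for granulocyte colony-stimulating factor, was the most even of the 10 within GFP+mCherry+ cells of day 25. At day 40 CSF3R had 32.8 and 45.9 FPKM in GFP+mCherry+ cells, 3.82, 3.77 and 2.75 FPKM in GFP-mCherry+ cells, and 6.23, 11.2 and 6.59 FPKM in GFP-mCherry- cells. At day 25 CSF3R had 24.9, 24.7 and 25.1 FPKM in GFP+mCherry+ cells, 3.14, 3.93 and 4.96 FPKM in GFP-mCherry+ cells, and 3.88, 8.13 and 8.5 FPKM in GFP-mCherry- cells. No GFP+mCherry+ library overlapped any other library, and the GFP+mCherry+ libraries of the days did not overlap each other.

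CHI3L1, a secreted chitin-binding glycoprotein without chitinase activity, was also even within groups. At day 40 CHI3L1 had 30.3 and 29.7 FPKM in GFP+mCherry+ cells, 3.27, 6.65 and 4.31 FPKM in GFP-mCherry+ cells, and 5.46, 9.62 and 9.77 FPKM in GFP-mCherry- cells. At day 25 CHI3L1 had 22.9, 19.1 and 17.9 FPKM in GFP+mCherry+ cells, 2.74, 3.94 and 3.39 FPKM in GFP-mCherry+ cells, and 2.59, 3.04 and 3.80 FPKM in GFP-mCherry- cells. GFP+mCherry+ libraries lay above all others over both days, while the GFP- populations overlapped each other.

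The order of the 6 group means differed between genes. GFP+mCherry+ cells of day 40 came first in 8 genes, and those of day 25 came first in FPGT and SLC47A1. GFP-mCherry- cells of day 40 came next in SLC5A12, LCNL1, ERVFRD-1, CARD16, OLR1, ALOX5, CSF3R and CHI3L1, whereas GFP-mCherry+ cells of day 25 came next in FPGT and SLC47A1. The days of GFP+mCherry+ cells stood apart beyond the SD in OLR1, CSF3R and CHI3L1. GFP+mCherry+ cells stood apart beyond the SD from the population that came next in LCNL1, ERVFRD-1, FPGT, CSF3R, CHI3L1 and SLC47A1, and the lower ranks of SLC47A1 were apart as well except within GFP-mCherry- cells. The other neighbours in these orders were not apart beyond it.

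The comparisons that the choice of the genes did not use ask how the genes differ between the GFP-mCherry+ and GFP-mCherry- cells. SLC47A1 was higher in GFP-mCherry+ cells on both days, and at day 40 CSF3R and CHI3L1 were lower in them. At day 25 SLC47A1 averaged 9.54 ± 1.01 FPKM in GFP-mCherry+ cells and 3.48 ± 0.67 FPKM in GFP-mCherry- cells (SD, n = 3 each), a difference of 1.24 ± 0.26 on the log2(FPKM + 1) scale (limma moderated fit, SE), with a Benjamini-Hochberg adjusted p of 0.002 in limma. This scale understates changes of low genes. It was the only call among the 10 at day 25, where 28.5% of all tested genes were called.
At day 40 SLC47A1 averaged 6.26 ± 0.83 FPKM in GFP-mCherry+ cells and 2.94 ± 0.98 FPKM in GFP-mCherry- cells (SD, n = 3 each), and the difference was 0.91 ± 0.26 (adjusted p = 0.0149 in limma). CSF3R averaged 3.45 ± 0.60 FPKM in GFP-mCherry+ cells and 8.02 ± 2.8 FPKM in GFP-mCherry- cells (SD, n = 3 each), a difference of -0.99 ± 0.27 (adjusted p = 0.0105 in limma), and the libraries did not overlap. CHI3L1 averaged 4.74 ± 1.73 FPKM in GFP-mCherry+ cells and 8.28 ± 2.45 FPKM in GFP-mCherry- cells (SD, n = 3 each), with overlapping libraries and a difference of -0.70 ± 0.24 (adjusted p = 0.0388 in limma). So 1 of the 10 was called higher and 2 lower at day 40, where 13.3% and 18.5% of tested genes were (31.9% in all), so the count is near the background. The median difference of the 10 was -0.87, beside -0.09 for all tested genes.

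The other 7 genes were not called between these populations on either day. The nearest at day 40 were CARD16, with a difference of -1.27 ± 0.50 (adjusted p = 0.0645), ALOX5, with -1.11 ± 0.49 (adjusted p = 0.094), and OLR1, with -1.18 ± 0.57 (adjusted p = 0.13), all from limma. FPGT, also among these 7, had at most 0.185 FPKM in any library of the GFP- populations, so a call on this scale was hardly possible. It stays in the counts and medians of the 10. Single libraries or processing choices decided several calls. Without library 15 CSF3R had a difference of -0.75 (adjusted p = 0.0666), and its adjusted p ranged from 0.00396 to 0.0666 over 26 settings. SLC47A1 at day 40 missed the threshold without library 11 (adjusted p = 0.0526) and without library 18 (adjusted p = 0.0625), within a range of 0.00307 to 0.0625. CHI3L1 at day 40 was called in 18 of 26 settings, with adjusted p between 0.00893 and 0.158, and was lost without library 11, 15, 17 or 18. It was also lost without a filter (adjusted p = 0.0524), with median-of-ratios scaling (0.0658), with quantile normalization (0.128) and with only the compared groups fitted (0.153), in limma.

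**Figure D2:**
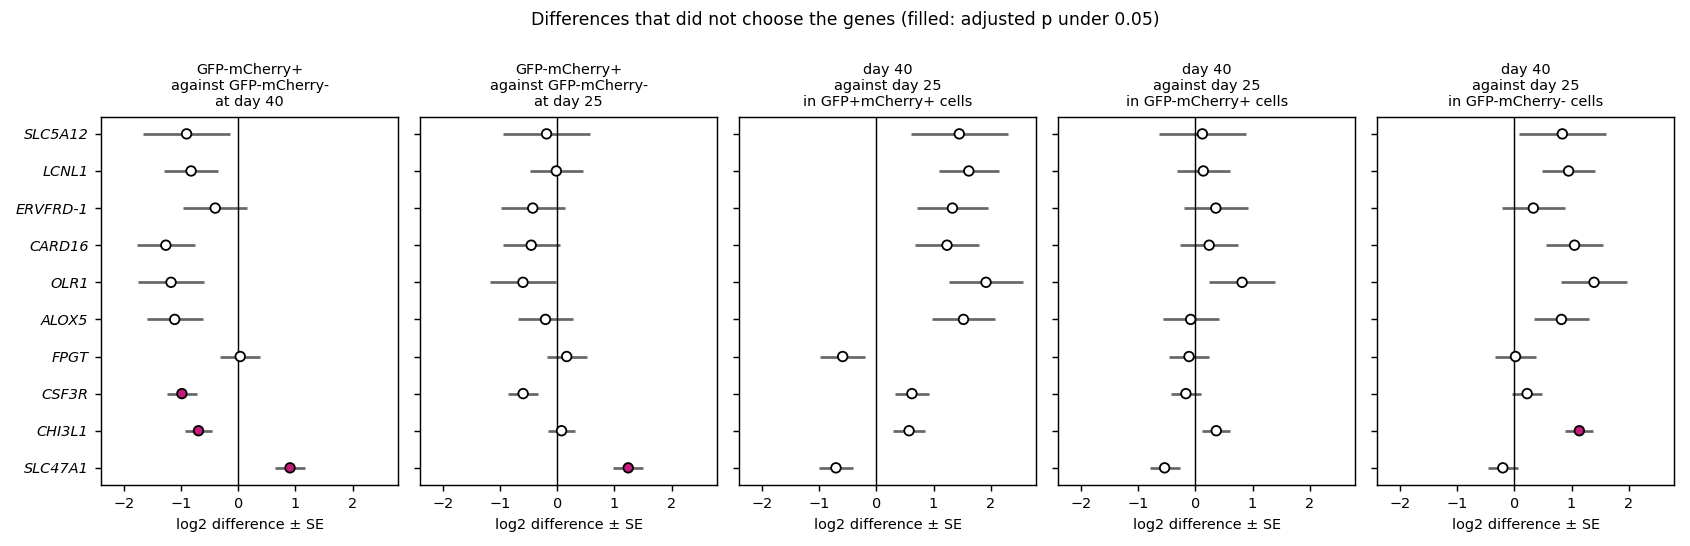
Differences on the log2(FPKM + 1) scale, with standard errors of the limma fit, for the 10 genes in the 5 comparisons that the choice of the genes did not use; filled points have an adjusted p under 0.05. SLC47A1 is filled to the right and CSF3R and CHI3L1 to the left between the GFP- populations at day 40, and CHI3L1 alone is filled between days, in GFP-mCherry- cells.

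Between days, no change in GFP+mCherry+ cells passed the test in any of the 10 genes. Limma called 0 of the 10 there, beside 4.06% of tested genes called (2.18% higher and 1.88% lower). At an unadjusted p under 0.05 in limma there were 6 of the 10. The share of all tested genes at that looser threshold is not given here, so the 6 have no background. The choice of the genes used both group means of this comparison, though not their difference, so the next values only describe the chosen genes. Of the 10 differences 8 were above 0, and their median was 1.28, beside -0.04 for all tested genes. The largest were OLR1, with 1.92 ± 0.64 (adjusted p = 0.103), LCNL1, with 1.62 ± 0.52 (adjusted p = 0.094), and ALOX5, with 1.52 ± 0.55 (adjusted p = 0.127), from limma. SLC47A1 had -0.71 ± 0.29 (adjusted p = 0.185 in limma) and FPGT had -0.59 ± 0.39 (adjusted p = 0.434 in limma).

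These values rest on 2 libraries of day 40 and moved with single libraries. Without library 10, LCNL1 had a difference of 2.58 (adjusted p = 0.0137, in a range of 0.0137 to 0.775) and ALOX5 had 2.27 (adjusted p = 0.0464, in a range of 0.0464 to 0.768). Without library 1, OLR1 had 2.56 (adjusted p = 0.0208, in a range of 0.0208 to 0.451), FPGT had -1.14 (adjusted p = 0.0237, in a range of 0.0237 to 0.938) and SLC47A1 had -1.03 (adjusted p = 0.0255, in a range of 0.0255 to 0.617). All are limma fits.

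In GFP-mCherry- cells CHI3L1 rose with time, to 8.28 ± 2.45 FPKM at day 40, against 3.14 ± 0.61 FPKM at day 25 (SD, n = 3 each). The difference was 1.14 ± 0.24 (adjusted p = 0.0184 in limma) and the libraries of the days did not overlap. It was the only call among the 10 there, beside 3.87% of tested genes (1.56% higher and 2.32% lower), and it was lost without library 3, 6, 15 or 18 and with only the compared groups fitted (adjusted p = 0.0554), in a range of adjusted p of 0.00898 to 0.0831. In GFP-mCherry+ cells limma called 0 of the 10, beside 4.55% of tested genes (0.633% higher and 3.91% lower), and FPGT lay near 0 there. At an unadjusted p under 0.05 in limma there were 0 of the 10, again without a background share. The change of CHI3L1 between days differed between GFP-mCherry+ and GFP-mCherry- cells by -0.77 ± 0.35, which was not called (adjusted p = 0.718 in limma), and this was the smallest adjusted p of the 10 for that difference.

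Within groups, several of the genes were highest in the same libraries. Library 13 was the higher GFP+mCherry+ library of day 40 in 8 of the 10, library 14 was the highest GFP-mCherry+ library of day 40 in 8, and library 15 was the highest GFP-mCherry- library of day 40 in 8. Over all tested genes these shares were 51%, 39.4% and 22.1%. All 3 held in SLC5A12, LCNL1, ERVFRD-1, CARD16, OLR1 and ALOX5, and in 6.84% of tested genes. At day 25 library 1 was the highest GFP+mCherry+ library in SLC5A12, ERVFRD-1, CARD16, OLR1, ALOX5 and CHI3L1, against 27.7% of tested genes, library 4 in FPGT and SLC47A1, and library 7 in LCNL1 and CSF3R.

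With group means removed, Pearson's r between 2 of the 10 genes over the 17 libraries had a median of 0.464 over 45 pairs. It ranged from -0.563, between OLR1 and FPGT, to 0.934, between SLC5A12 and CARD16, and 12 pairs were below 0. SLC47A1 and OLR1 had -0.208. These are descriptions over libraries that share culture and sorting, and the members share the libraries' scaling. What set libraries 1, 13, 14 and 15 apart was not tested.

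**Figure D3:**
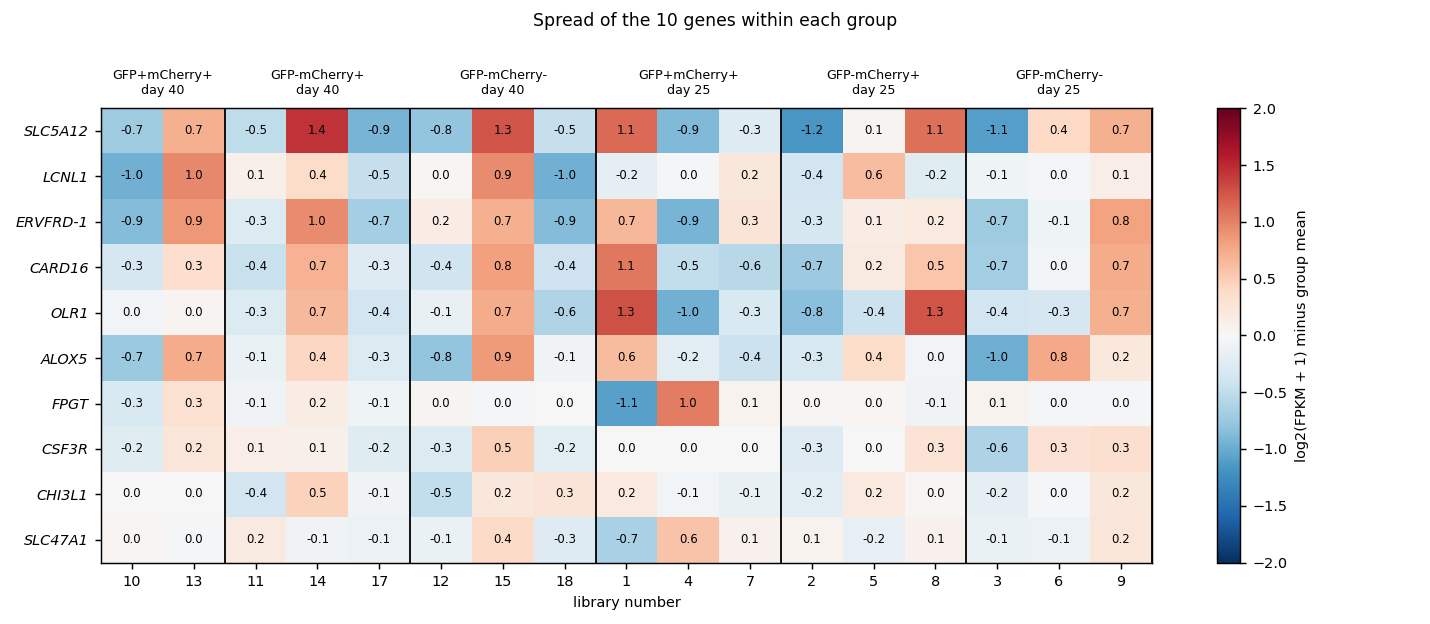
Each cell gives log2(FPKM + 1) of a gene in a library minus the mean of that library's group, from blue (below) to red (above). Libraries 13, 14 and 15 are red in most of the upper rows, and in the GFP+mCherry+ libraries of day 25 FPGT and SLC47A1 run opposite to OLR1 and CARD16.

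The genes whose levels followed each of the 10 most closely over the 17 libraries fell into sets, by the highest Pearson's r of log2(FPKM + 1). FPGT was followed most closely by POU4F1, a sensory neuron transcription factor (r = 0.987), and by SHOX2 (r = 0.955). SLC47A1 was followed by CHRND, a muscle acetylcholine receptor subunit (r = 0.968), and by DACH2 (r = 0.951).

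The others had different neighbours. ARHGEF3 was closest to SLC5A12 (r = 0.970) and to CARD16 (r = 0.974), COBLL1 was closest to ERVFRD-1 (r = 0.963) and to ALOX5 (r = 0.970), and TBC1D2B was closest to LCNL1 (r = 0.968). OLR1 was followed by SLPI, a secreted protease inhibitor of mucosal epithelium (r = 0.971), CSF3R by ENPP2, the enzyme that makes lysophosphatidic acid (r = 0.958), and CHI3L1 by HMOX1, the inducible haem oxygenase (r = 0.956). All these r run over the same 17 libraries and reflect the group differences that chose the genes.

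Several of the genes share their locus with another gene. Coordinates are of hg19, with starts counted from 1. FPGT spans chr1:74663896-74699770, inside which begin FPGT-TNNI3K, a readthrough gene, at 74663919, and TNNI3K, a kinase of heart muscle, at 74663947. TNNI3K had 30.0 and 24.3 FPKM in GFP+mCherry+ cells at day 40, 53.4, 46.1 and 51.2 FPKM in GFP-mCherry+ cells, and 6.74, 1.08 and 1.15 FPKM in GFP-mCherry- cells. So TNNI3K, unlike FPGT, was not higher in GFP+mCherry+ than in GFP-mCherry+ cells.

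FPGT-TNNI3K was likewise not higher in GFP+mCherry+ than in GFP-mCherry+ cells. At day 40 its difference was -0.56 ± 0.33 between GFP+mCherry+ and GFP-mCherry+ cells (adjusted p = 0.229) and 1.74 ± 0.33 between GFP+mCherry+ and GFP-mCherry- cells (adjusted p = 0.00333), from limma. Of the summed FPKM of FPGT, FPGT-TNNI3K and TNNI3K, FPGT made up 6.15% and 12.35% in GFP+mCherry+ libraries at day 40, against 0% to 0.354% in GFP-mCherry+ libraries and 0.950% to 2.82% in GFP-mCherry- libraries. At day 25 it made up 11.4%, 36.5% and 29.1% in GFP+mCherry+ libraries, against 0.233% to 1.11% in GFP-mCherry+ libraries. In GFP-mCherry- libraries of day 25 it made up 15.3% in library 3, above GFP+mCherry+ library 1, and 0% in libraries 6 and 9, of locus sums of only 0.520 to 0.547 FPKM. How fragments of the shared stretches were assigned is not given in the sources used here. Of the 50-base words of FPGT's transcript 12.6% also occur in FPGT-TNNI3K, which limits the value of FPGT. Words here and below are of each gene's longest protein-coding transcript in GENCODE, not of the hg19 annotation behind the FPKM.

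LRRIQ3 ends 25 bases before FPGT. It had 0.0658 and 1.88 FPKM in GFP+mCherry+ cells at day 40 and was listed at 0 in the 6 other libraries of that day. At day 25 it had 0.117, 1.78 and 0.452 FPKM in GFP+mCherry+ cells, 0.0738 FPKM in library 2, and was listed at 0 in the 5 other libraries. Library 13 was the higher library of day 40 and library 4 the highest GFP+mCherry+ library of day 25 in LRRIQ3, as in FPGT.

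LCNL1 spans chr9:139876356-139880862 and overlaps PTGDS, a prostaglandin D synthase that is itself a lipocalin, by 3532 bases. PTGDS had 490 and 455 FPKM in GFP+mCherry+ cells at day 40, 60.9, 32.9 and 39.6 FPKM in GFP-mCherry+ cells, and 86.5, 330 and 154 FPKM in GFP-mCherry- cells. In GFP+mCherry+ cells of day 40 PTGDS was nearly equal in libraries 10 and 13, whereas LCNL1 had 21.5 and 84.3 FPKM there. Against GFP-mCherry+ cells PTGDS differed by 3.43 ± 0.45 at day 40 and by 2.56 ± 0.40 at day 25 (adjusted p = 0.000201 and 0.000806 in limma). Of LCNL1's 50-base words 12.5% occur in AL807752.7 and none was found in PTGDS. These words come from another annotation than the FPKM, so they do not show how fragments of the overlap were assigned.

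CARD16 spans chr11:104912053-104972158, all of it inside CASP1, the inflammasome protease, and 18.5% of its 50-base words occur in CASP1. CASP1 had 31.7 and 38.3 FPKM in GFP+mCherry+ cells at day 40, 1.61, 8.38 and 5.53 FPKM in GFP-mCherry+ cells, and 4.28, 12.7 and 4.17 FPKM in GFP-mCherry- cells. At day 25 CASP1 had 14.4, 1.76 and 1.17 FPKM in GFP+mCherry+ cells, against 0.677 to 2.03 FPKM in GFP-mCherry+ cells and 0.801 to 3.97 FPKM in GFP-mCherry- cells, so libraries 4 and 7 lay within the others. CARD16 did not show that overlap, with 12.4 and 11.9 FPKM in those libraries. CASP1 differed from GFP-mCherry+ cells by 2.73 ± 0.72 at day 40 (adjusted p = 0.0116) and by 1.07 ± 0.64 at day 25 (adjusted p = 0.258, not called), in limma.

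OLR1 spans chr12:10310902-10324737 and overlaps TMEM52B by 1597 bases, but shares no 50-base word with another gene. TMEM52B had 6.71 and 8.16 FPKM in GFP+mCherry+ cells at day 40, against 0.240 to 1.13 FPKM in GFP-mCherry+ cells and 1.55 to 2.64 FPKM in GFP-mCherry- cells. It differed from GFP-mCherry+ cells by 2.43 ± 0.41 and from GFP-mCherry- cells by 1.46 ± 0.41 (adjusted p = 0.000903 and 0.0304 in limma). The lectin gene CLEC7A and GABARAPL1, an autophagy gene, flank OLR1, and both were higher than in GFP-mCherry+ cells at day 40, by 2.16 ± 0.54 and 1.81 ± 0.36 (adjusted p = 0.00839 and 0.00244 in limma).

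ERVFRD-1 spans chr6:11102722-11111965, within the span of SMIM13. ALOX5 spans chr10:45869661-45941561, CSF3R chr1:36931644-36948879, CHI3L1 chr1:203148059-203155877, SLC5A12 chr11:26688566-26744974 and SLC47A1 chr17:19398698-19482347, with no overlapping gene among those listed. SLC5A12, ERVFRD-1, ALOX5, CSF3R and CHI3L1 share no 50-base word with another gene, and SLC47A1 shares 3.16%. Of the 20 nearest tested genes that flank the 10 without overlap, at day 40 6 were called higher and 2 lower than in GFP-mCherry+ cells, beside 16.2% and 9.29% of tested genes (25.5% in all). At day 25 7 were called higher and 0 lower, beside 12% and 8.38% (20.4% in all). Against GFP-mCherry- cells 3 were higher and 1 lower at day 40, beside 7.04% and 4.76% (11.8% in all), and 4 higher and 3 lower at day 25, beside 5.78% and 5.27% (11.1% in all).

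**Figure D4:**
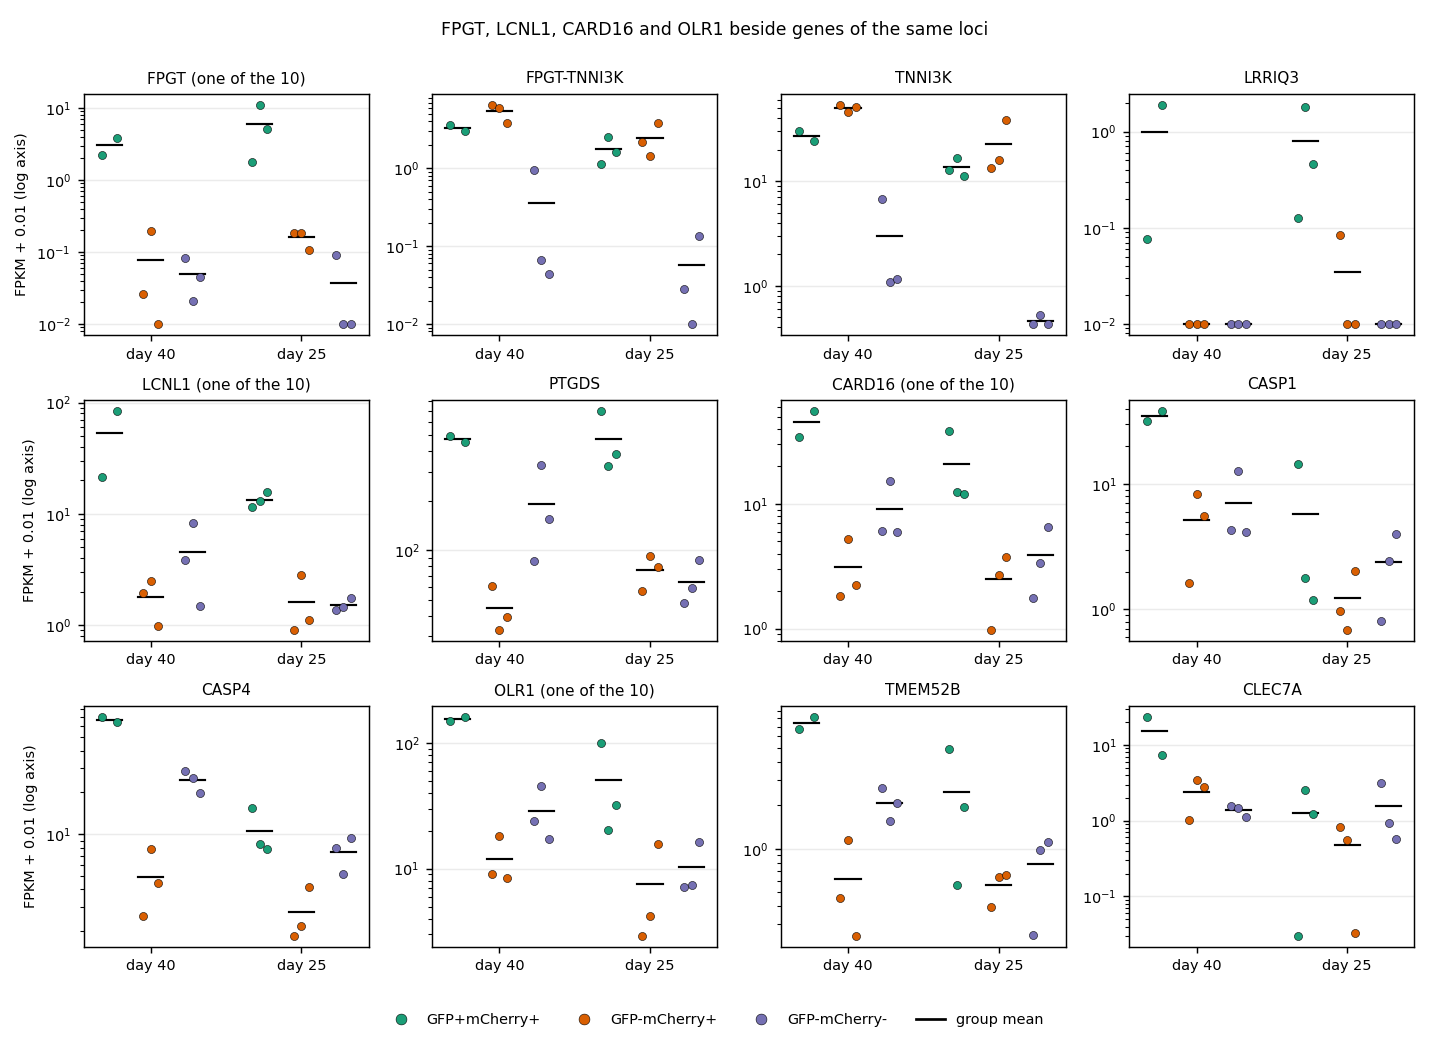
FPKM in every library (log axis; a small constant added) of FPGT, LCNL1, CARD16 and OLR1 and of genes that overlap or flank them, with a bar at each group mean. TNNI3K and FPGT-TNNI3K are high in GFP-mCherry+ cells, where FPGT is near 0, and CASP1 in GFP+mCherry+ cells of day 25 spans 1.17 to 14.4 FPKM.

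The background of every list and marker count below is the share of all tested genes called. Against GFP-mCherry+ cells it was 16.2% higher and 9.29% lower at day 40, and 12% and 8.38% at day 25. Against GFP-mCherry- cells it was 7.04% higher and 4.76% lower at day 40, and 5.78% and 5.27% at day 25. Around ALOX5 the calls depended on the population compared. Of 17 tested genes of the leukotriene pathway, 10 were called higher and 1 lower than in GFP-mCherry+ cells at day 40, with a median difference of 0.87 beside 0.08 for all tested genes, of which 16.2% were called higher and 9.29% lower. ALOX5 was chosen for this difference and is not counted among them. Macrophage markers were higher in the same comparison, 14 of 17 tested. ALOX5AP, which presents arachidonic acid to ALOX5, averaged 53.1 ± 28.7 FPKM in GFP+mCherry+ cells (SD, n = 2) and 9.54 ± 4.36 FPKM in GFP-mCherry+ cells (SD, n = 3), a difference of 2.35 ± 0.41 (adjusted p = 0.00108 in limma). DPEP1, a dipeptidase that trims leukotriene D, differed by 3.32 ± 0.40 (adjusted p = 0.000129 in limma), and MGST3 was lower by -0.76 ± 0.22 (adjusted p = 0.0197 in limma).

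At day 25 3 of the 17 were higher and 3 lower than in GFP-mCherry+ cells. LTC4S, the leukotriene C synthase, was lower, at 0.194 ± 0.197 FPKM in GFP+mCherry+ cells and 1.11 ± 0.35 FPKM in GFP-mCherry+ cells (SD, n = 3 each; difference -0.82 ± 0.20, adjusted p = 0.00893 in limma). Against GFP-mCherry- cells 3 were higher and 0 lower at day 40, where ALOX5AP differed by 3.34 ± 0.41 (adjusted p = 0.000147 in limma), and 2 were higher and 2 lower at day 25. Without library 13, MGST3 was not called at day 40, and without library 10, 1 of the 17 was higher than in GFP-mCherry- cells at day 40. The counts of day 25 against GFP-mCherry- cells ran from 0 to 3 higher and from 1 to 3 lower with single libraries left out; 0 were higher without library 1, 2, 4, 5, 6, 9, 10, 13 or 15, and 1 was lower without library 1, 3, 4, 5, 6, 7, 9 or 18.

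Among 12 tested lipoxygenases and prostaglandin synthases other than ALOX5, 6 were higher and 1 lower than in GFP-mCherry+ cells at day 40, and 3 higher and 1 lower at day 25. PTGIS, the prostacyclin synthase, was higher on both days, by 2.88 ± 0.40 and 1.77 ± 0.35 (adjusted p = 0.000263 and 0.00343 in limma). Against GFP-mCherry- cells 3 were higher and 1 lower at day 40. HPGDS, a prostaglandin D synthase of blood cells, differed by 2.35 ± 0.29 (adjusted p = 0.000157 in limma), whereas PTGES, a prostaglandin E synthase, was lower by -2.15 ± 0.43 (adjusted p = 0.00505 in limma). At day 25 2 were higher, ALOX15 among them by 1.44 ± 0.38 (adjusted p = 0.0247 in limma), and 2 lower. Without library 10 or without library 13, 1 was higher than in GFP-mCherry- cells at day 40. At day 25 1 was higher without library 1, 3, 6 or 9, and 0 were lower without library 3. Without library 13, 0 were lower at day 40 in either comparison.

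Around CARD16, 9 of 16 tested genes of the caspase-1 locus and the inflammasomes were higher and 0 lower than in GFP-mCherry+ cells at day 40. CASP4, a caspase that senses bacterial lipopolysaccharide, averaged 67.1 ± 4.4 FPKM in GFP+mCherry+ cells (SD, n = 2) and 4.94 ± 2.69 FPKM in GFP-mCherry+ cells (SD, n = 3), a difference of 3.62 ± 0.37 (adjusted p = 5.1e-05 in limma). At day 25 4 were higher and 0 lower, and CASP4 differed by 1.63 ± 0.33 (adjusted p = 0.00397 in limma). Against GFP-mCherry- cells 6 were higher and 1 lower at day 40, and 0 higher and 1 lower at day 25.

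IL1B, the cytokine that caspase-1 matures, was higher than in GFP-mCherry- cells at day 40 and lower at day 25. It averaged 17.2 ± 4.1 FPKM in GFP+mCherry+ cells and 3.46 ± 0.94 FPKM in GFP-mCherry- cells at day 40 (SD, n = 2 and 3; difference 2.03 ± 0.38, adjusted p = 0.00334 in limma). At day 25 the difference was -1.27 ± 0.34 (adjusted p = 0.0269 in limma), and the change of the difference between days was not tested. Without library 13, 2 of the 16 were higher than in GFP-mCherry- cells at day 40, and without library 1, 5 or 8, 2 were higher than in GFP-mCherry+ cells at day 25. The call of IL1B at day 25 was lost without library 1, 3, 4, 7 or 9, and the 1 lower at day 40 without library 2, 3, 5, 6, 7, 9, 13, 15 or 18.

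For CSF3R, 20 genes of colony-stimulating factor signalling were tested. Against GFP-mCherry+ cells 6 were higher and 0 lower at day 40, and 4 higher and 0 lower at day 25. Of all tested genes 16.2% and 12% were called higher on these days. CSF2RA, which binds granulocyte-macrophage colony-stimulating factor, differed by 1.72 ± 0.37 at day 40 and 1.12 ± 0.33 at day 25 (adjusted p = 0.0037 and 0.0261 in limma), and CSF2RB, its signalling partner, by 1.14 ± 0.18 at day 40 (adjusted p = 0.000521 in limma). Against GFP-mCherry- cells 5 were higher and 1 lower at day 40, with SYK, a kinase of immune receptors, at 1.75 ± 0.28 (adjusted p = 0.00102 in limma), and 1 higher and 0 lower at day 25, which was STAT3 at 0.91 ± 0.20 (adjusted p = 0.00743 in limma). Without library 2, 0 of the 20 were called higher than in GFP-mCherry+ cells at day 25, and the 1 lower than in GFP-mCherry- cells at day 40 was lost without library 12, 13 or 15.

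Near OLR1 in function, 20 C-type lectin and scavenger receptors and their neighbours were tested. Against GFP-mCherry+ cells 8 were higher and 0 lower at day 40, and 3 higher and 2 lower at day 25. CXCL16, a transmembrane chemokine that also takes up oxidised lipoprotein, differed by 2.69 ± 0.35 at day 40 and 2.13 ± 0.32 at day 25 (adjusted p = 0.000201 and 0.000598 in limma). CD36, a fatty acid and lipoprotein receptor of heart muscle, was lower at day 25, at 4.01 ± 0.99 FPKM in GFP+mCherry+ cells and 45.3 ± 36.3 FPKM in GFP-mCherry+ cells (SD, n = 3 each; difference -2.92 ± 0.57, adjusted p = 0.00291 in limma).

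Against GFP-mCherry- cells 6 of these receptors were higher and 1 lower at day 40, and 0 higher and 4 lower at day 25. CLEC5A and MSR1, both of macrophages, differed by 2.35 ± 0.24 and 2.64 ± 0.31 at day 40 (adjusted p = 4.07e-05 and 0.000105 in limma). CLEC1B, a platelet receptor, was lower at day 25, by -2.85 ± 0.32 (adjusted p = 4.94e-05 in limma). STAB1, a scavenger receptor of sinus endothelium and macrophages, was lower at day 25, by -1.87 ± 0.38, but higher at day 40, by 2.37 ± 0.43 (adjusted p = 0.00522 and 0.0024 in limma). Against GFP-mCherry+ cells at day 25, 1 was higher without library 2, 5 or 8 and 1 was lower without library 1, 2 or 5, and without library 1 or 6, 2 were lower than in GFP-mCherry- cells at day 25. The 1 lower than in GFP-mCherry- cells at day 40 was lost without library 10, 13 or 18.

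Few relatives of CHI3L1 were called. Of 8 tested genes of the chitinase family and its partners, 1 was higher than in GFP-mCherry+ cells at day 40, CTBS, a lysosomal chitobiase (1.11 ± 0.34, adjusted p = 0.0262 in limma), and 1 was higher than in GFP-mCherry- cells at day 25, OVGP1, an oviduct glycoprotein (1.21 ± 0.31, adjusted p = 0.0204 in limma). No other call was made for them in the 4 comparisons of GFP+mCherry+ cells. The call of CTBS was lost without library 11, 13 or 17, and that of OVGP1 without library 3, 4, 7 or 9.

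The transporter lists were mixed. Of 20 tested organic cation and drug transporters related to SLC47A1 in function, 4 were higher and 1 lower than in GFP-mCherry+ cells at day 40, near the 16.2% higher and 9.29% lower of all tested genes, and 5 higher and 3 lower at day 25. SLC22A3, an organic cation transporter of the plasma membrane, averaged 4.56 ± 0.43 FPKM in GFP+mCherry+ cells and 0.834 ± 0.404 FPKM in GFP-mCherry+ cells at day 25 (SD, n = 3 each; difference 1.62 ± 0.31, adjusted p = 0.00256 in limma). SLCO3A1, an organic anion transporter, was lower than in GFP-mCherry+ cells on both days, by -2.03 ± 0.27 and -2.5 ± 0.24 (adjusted p = 0.000201 and 3.18e-05 in limma). Against GFP-mCherry- cells 2 were higher and 2 lower at day 40, and 4 higher and 2 lower at day 25. ABCB1, the multidrug efflux pump, was lower on both days, by -2.03 ± 0.42 and -1.92 ± 0.38 (adjusted p = 0.00616 and 0.00392 in limma).

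Single libraries set several of these transporter counts. At day 40 without library 13, 0 were higher than in GFP-mCherry+ cells. At day 25 the 5 higher became 3 without library 2, 4, 5, 7 or 8, the 3 lower became 1 without library 1, and the 4 higher than in GFP-mCherry- cells became 2 without library 6, 7 or 9. Against GFP-mCherry- cells at day 40, 0 were higher without library 13 and 1 was lower without library 10, and at day 25 1 was lower without library 6.

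Of 23 tested sodium-glucose family and monocarboxylate transporters and lactate enzymes around SLC5A12, 3 were higher and 5 lower than in GFP-mCherry+ cells at day 40, and 3 higher and 6 lower at day 25. SLC16A4, of the monocarboxylate transporter family, averaged 13.1 ± 0.6 FPKM in GFP+mCherry+ cells (SD, n = 2) and 1.54 ± 0.06 FPKM in GFP-mCherry+ cells (SD, n = 3) at day 40, a difference of 2.48 ± 0.23 (adjusted p = 3.85e-05 in limma). LDHB, the lactate dehydrogenase subunit abundant in heart, was lower on both days, by -1.41 ± 0.24 and -1.16 ± 0.21 (adjusted p = 0.000865 and 0.00203 in limma). Against GFP-mCherry- cells 2 were higher and 0 lower at day 40, and 2 higher and 3 lower at day 25. Without library 13 the day 40 counts against GFP-mCherry+ cells were 1 higher and 2 lower, without library 17 1 was higher, and without library 1, 3, 6 or 7 0 were lower than in GFP-mCherry- cells at day 25. Against GFP-mCherry- cells, 1 was higher at day 25 without library 3, and at day 40 without any of libraries 3, 5, 6, 7, 9, 10, 13, 15, 17 and 18.

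Of 12 tested lipocalins around LCNL1, 2 were higher and 0 lower than in GFP-mCherry+ cells at day 40, near the 16.2% higher of all tested genes, and 4 higher and 0 lower at day 25. Against GFP-mCherry- cells 1 was higher, PTGDS, and 3 lower at day 40. The lower ones included RBP4, the plasma retinol carrier, at -2.24 ± 0.53 (adjusted p = 0.0124 in limma), and PAEP, glycodelin, at -2.57 ± 0.61 (adjusted p = 0.0128 in limma). At day 25 PTGDS alone was higher, by 2.81 ± 0.40 (adjusted p = 0.000382 in limma). Without library 2, 7 or 8, 1 of the 12 was higher than in GFP-mCherry+ cells at day 25, and without library 13, at day 40 1 was higher than in GFP-mCherry+ cells and 0 were lower than in GFP-mCherry- cells. The call of PTGDS against GFP-mCherry- cells at day 40 was lost without library 6, 10, 12, 13 or 18.

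Of 12 tested syncytin and trophoblast fusion genes around ERVFRD-1, 7 were higher and 1 lower than in GFP-mCherry+ cells at day 40, and 6 higher and 2 lower at day 25. MFSD2A, a lysolipid transporter that serves ERVFRD-1 as its receptor in trophoblast, was higher at day 40, at 5.54 ± 1.97 FPKM in GFP+mCherry+ cells (SD, n = 2) and 1.44 ± 0.43 FPKM in GFP-mCherry+ cells (SD, n = 3; difference 1.40 ± 0.31, adjusted p = 0.00459 in limma). ADAM12, a metalloprotease of fusing cells, was higher at day 25 than in GFP-mCherry+ cells, by 2.05 ± 0.32, and than in GFP-mCherry- cells, by 1.46 ± 0.32 (adjusted p = 0.000765 and 0.00818 in limma). Against GFP-mCherry- cells 1 was higher and 0 lower on each day. Without library 13, 3 of the 12 were higher than in GFP-mCherry+ cells at day 40, and without library 1, 3 were at day 25. The 1 lower than in GFP-mCherry+ cells at day 40 was lost without library 13, and the 1 higher than in GFP-mCherry- cells at day 40, ERV3-1, was lost with any library but 1, 10 or 14 left out.

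Of 23 tested genes of fucose salvage and fucosylation around FPGT, a list that also holds TNNI3K, 5 were higher and 0 lower than in GFP-mCherry+ cells at day 40, near the 16.2% higher of all tested genes, and 2 higher and 1 lower at day 25. FUCA1, the lysosomal fucosidase, averaged 30.1 ± 5.3 FPKM in GFP+mCherry+ cells (SD, n = 2) and 12.1 ± 4.1 FPKM in GFP-mCherry+ cells (SD, n = 3) at day 40, a difference of 1.28 ± 0.28 (adjusted p = 0.00403 in limma). Against GFP-mCherry- cells 1 was higher, TNNI3K, and 1 lower on each day. Without library 13, 1 of the 23 was higher than in GFP-mCherry+ cells at day 40, and at day 25 1 was higher without any of libraries 1, 2, 4, 5, 6, 7, 8, 9, 15, 17 and 18. The 1 lower was lost without library 1, 5 or 8 against GFP-mCherry+ cells at day 25, and without library 10, 13 or 18 against GFP-mCherry- cells at day 40.

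Markers of other cell types moved with the populations as well. Of 17 tested macrophage and monocyte markers, 14 were higher than in GFP-mCherry+ cells and 14 higher than in GFP-mCherry- cells at day 40, with 0 lower. Their summed level at day 40 was 768 FPKM in library 10 and 325 FPKM in library 13, against 101.1 to 154.6 FPKM in GFP-mCherry+ cells and 85.2 to 98.5 FPKM in GFP-mCherry- cells. MRC1 was at 0 in both GFP- populations and under 0.5 FPKM in GFP+mCherry+ cells. ALOX5, CSF3R, CARD16 and OLR1 were each higher in library 13 than in library 10, OLR1 only slightly, at 161 and 150.0 FPKM. Library 13 was the higher of the pair in 51% of all tested genes, while its marker sum was the lower. CHI3L1 had 29.7 FPKM in library 13 and 30.3 FPKM in library 10. The part of macrophages in the day 40 levels was not tested. Without library 10, 6 and 8 markers were higher than in the GFP-mCherry+ and GFP-mCherry- cells.

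At day 25 the sum of the same macrophage list overlapped that of GFP-mCherry+ cells and was below that of GFP-mCherry- cells. It was 55.7 to 71.3 FPKM in GFP+mCherry+ cells and 72.5 to 87.3 FPKM in GFP-mCherry- cells. In GFP-mCherry+ cells it was 72.5, 41.4 and 12.7 FPKM in libraries 2, 5 and 8. Of its genes 1 was higher than in GFP-mCherry+ cells, with 0 without library 1, 4 or 8 and 3 without library 2. Than in GFP-mCherry- cells, 0 were higher. CSF3R, ALOX5, CARD16, OLR1 and CHI3L1 were higher in every GFP+mCherry+ library of that day, which the choice of the genes largely fixed. The part of macrophages in the day 25 levels was not tested. MRC1 was listed at 0 in all GFP+mCherry+ libraries of day 25, but was under 0.5 FPKM in every library of all groups. In GFP+mCherry+ cells of day 25, 11 of the 18 listed markers averaged at least 1 FPKM, led by CD74, CD68 and AIF1. In each other population of that day 10 did.

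Of 15 neutrophil markers, MPO, ELANE, CAMP and MMP8, which are granule genes, were listed at 0 in every GFP+mCherry+ library of both days. ELANE, CAMP and MMP8 were under 0.5 FPKM in every library of all groups. Other granule genes of the list were not silent. AZU1 was among the 3 highest markers in GFP+mCherry+ cells of day 25, as in both other populations of that day. LTF, and also FCGR3B, reached 0.5 FPKM in GFP+mCherry+ cells of day 40 and in no other group. The sum of the list at day 40 was 28.6 to 32.5 FPKM in GFP+mCherry+ cells. It was 41.1 to 59.6 FPKM in GFP-mCherry+ cells and 9.92 to 18.3 FPKM in GFP-mCherry- cells. S100A9, S100A8 and CXCR2 led it in GFP+mCherry+ cells, where 6 of the 15 markers averaged at least 1 FPKM, against 3 in each other population. At day 25 the neutrophil sum was 14.6 to 24.5 FPKM in GFP+mCherry+ cells, against 12.7 to 37.4 FPKM in GFP-mCherry+ cells and 16.2 to 22.8 FPKM in GFP-mCherry- cells. Limma tested 6 of the 15, with 1 higher and 1 lower than in GFP-mCherry+ cells at day 40, and 2 higher and 1 lower at day 25. Than in GFP-mCherry- cells, 1 was higher and 0 lower at day 40, and 1 higher and 1 lower at day 25. Each count of higher markers fell to 0 without some single library. The part of neutrophils in the level of CSF3R was not tested.

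Lung-like secretory epithelium markers are 14 genes led by SLPI, the gene closest to OLR1 in pattern. Their sum at day 40 was 1576 FPKM in library 10 and 1343 FPKM in library 13, against 41.3 to 122.1 FPKM in GFP-mCherry+ cells and 196.9 to 413.8 FPKM in GFP-mCherry- cells. At day 25 it was 1231, 132.6 and 195.2 FPKM in GFP+mCherry+ libraries 1, 4 and 7, beside 99.3, 20.1 and 32.3 FPKM of OLR1. SLPI alone averaged 1043 FPKM at day 40 and 277.9 FPKM at day 25 in GFP+mCherry+ cells. The sum is therefore not independent of the r between SLPI and OLR1. The other populations of day 25 had 48.7 to 118.9 FPKM in GFP-mCherry+ cells and 177.5 to 194.1 FPKM in GFP-mCherry- cells. SFTPB, SFTPC, NKX2-1 and SCGB1A1, which mark lung epithelium, were listed at 0 in GFP+mCherry+ cells of day 40, whereas SFTPD and SLC34A2, also of lung epithelium, were the highest of the list there after SLPI. Of 9 tested markers of the list 4 were higher than in GFP-mCherry+ cells at day 40, SLPI, SFTPD and SLC34A2 among them (1 without library 13), and 2 at day 25 (1 without library 1, 2, 5, 6 or 7, and 4 without library 4). Against GFP-mCherry- cells 0 were higher on each day (2 at day 25 without library 4, 1 at day 40 without library 1) and 1 lower. The part of such cells in the level of OLR1 was not tested.

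Kidney markers were higher than in GFP-mCherry+ cells but close to GFP-mCherry- cells. The sum of 14 proximal tubule markers at day 40 was 431.7 to 613 FPKM in GFP+mCherry+ cells, 212.4 to 253.5 FPKM in GFP-mCherry+ cells and 412.2 to 532.7 FPKM in GFP-mCherry- cells, led by AQP1, LRP2 and GATM in GFP+mCherry+ cells. At day 25 the sum was 508.9 to 723.6 FPKM in GFP+mCherry+ cells, 210.4 to 294.4 FPKM in GFP-mCherry+ cells and 422.6 to 647.4 FPKM in GFP-mCherry- cells. Of 6 tested tubule markers 3 were higher than in GFP-mCherry+ cells at day 40 and 4 at day 25 (2 without library 8), and GATM alone was higher than in GFP-mCherry- cells on each day, with 0 lower in any of these. SLC34A1 and SLC22A6, which define the tubule, were listed at 0 in GFP+mCherry+ cells of day 40, where SLC5A12 had 113 and 304 FPKM, but not in all GFP+mCherry+ libraries of day 25. Both were under 0.5 FPKM in every library of all groups. The part of tubule cells in the levels of SLC5A12 and SLC47A1 was not tested.

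Trophoblast markers were highest in GFP-mCherry- cells. The sum of 20 trophoblast markers at day 40 was 44.5 to 73.2 FPKM in GFP+mCherry+ cells, 13.2 to 38.5 FPKM in GFP-mCherry+ cells and 106.4 to 262.1 FPKM in GFP-mCherry- cells. At day 25 the trophoblast sum was 78.5 to 185.7 FPKM in GFP+mCherry+ cells, 28.5 to 49.7 FPKM in GFP-mCherry+ cells and 218 to 278 FPKM in GFP-mCherry- cells. Of 10 tested trophoblast markers 1 was higher than in GFP-mCherry+ cells at day 40 (0 without library 11 or 13) and 6 at day 25 (1 without library 4). Against GFP-mCherry- cells 5 were lower on each day, with 3 at day 40 without library 10 or 13 and 1 at day 25 without library 1, 6 or 9. The trophoblast genes PSG1, PSG3 and CGB5 were listed at 0 in GFP+mCherry+ cells of day 40, where ERVFRD-1 had 9.70 and 34.8 FPKM. They were under 0.5 FPKM in every library of all groups. In GFP+mCherry+ cells of day 40, 7 of the 20 markers averaged at least 1 FPKM, led by KRT7, TFAP2A and VGLL1. That day 7 did so in GFP-mCherry+ and 8 in GFP-mCherry- cells, led by the same genes. At day 25 9 did so in GFP+mCherry+ cells, led by KRT7, TFAP2A and HSD3B1, against 6 in GFP-mCherry+ and 8 in GFP-mCherry- cells. The syncytin gene ERVW-1 reached 0.5 FPKM in GFP+mCherry+ cells of day 25 and in no other group. The part of trophoblast cells in the level of ERVFRD-1 was not tested.

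Fibroblast markers separated the GFP-mCherry+ cells from the rest. Their sum at day 40 was 11580 to 12590 FPKM in GFP+mCherry+ cells, 2024 to 7462 FPKM in GFP-mCherry+ cells and 11490 to 23460 FPKM in GFP-mCherry- cells, and library 14 was the highest of its group, as it was for 8 of the 10 genes. Library 15 was the highest GFP-mCherry- library, again as for 8 of the 10. The neutrophil, kidney, lung-like, endothelial and hepatic marker sums were likewise highest in libraries 14 and 15 of these groups. Those of the other lists were not highest in both. Limma called 9 of 12 tested fibroblast markers higher than in GFP-mCherry+ cells at day 40, but 1 without library 13. Against GFP-mCherry- cells it called 0 higher and 2 lower, but 0 lower without library 13. The part of fibroblasts, or of any other of these cell types, in the differences between libraries of a group was not tested.

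**Figure D5:**
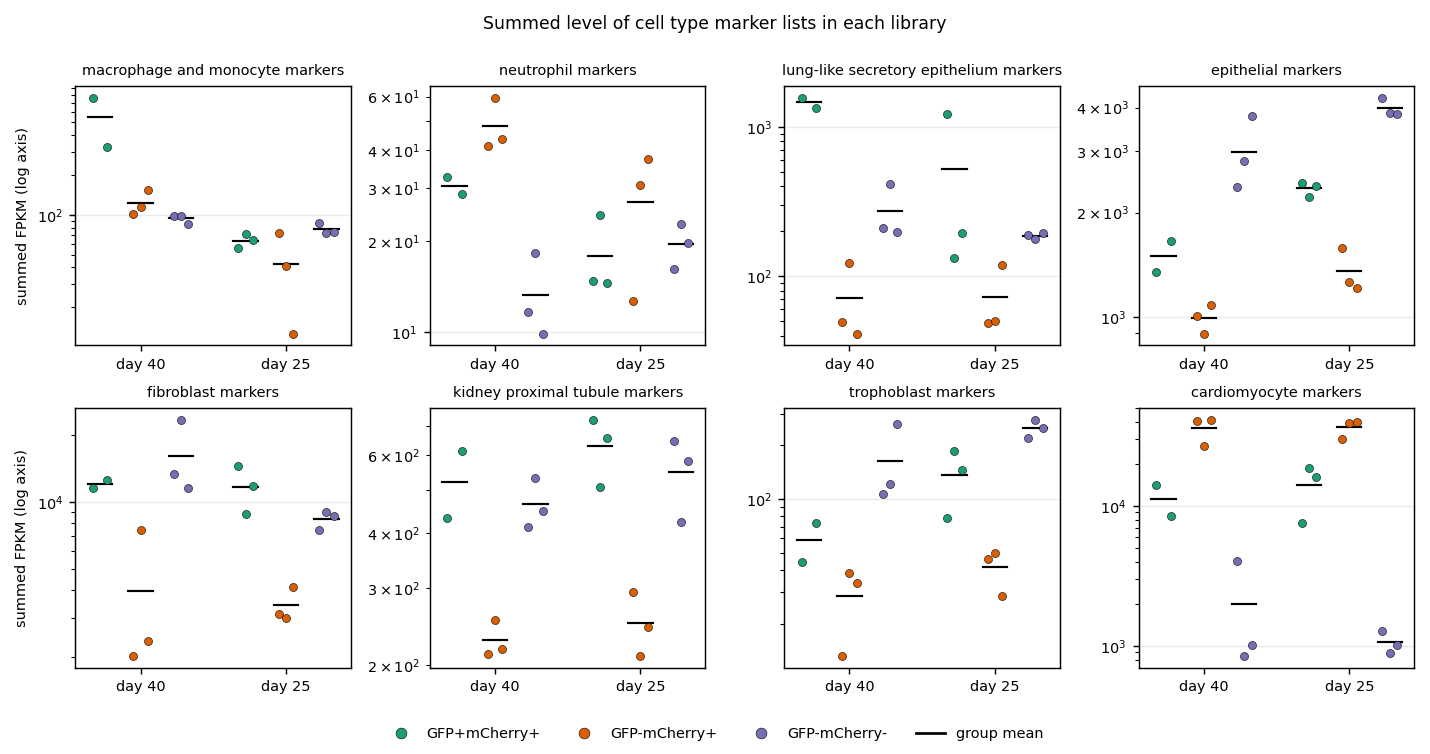
Summed FPKM of marker lists of other cell types and of cardiomyocytes in every library (log axis), with a bar at each group mean. The macrophage sum stands apart in GFP+mCherry+ libraries of day 40 but not of day 25, and the secretory epithelium sum is high in both GFP+mCherry+ libraries of day 40 and in 1 of 3 of day 25.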

How the data were processed

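RNA-seq libraries were made with a TruSeq kit, per the labels' protocols. Per the submitters' processing notes, bcl2fastq 2.19, cutadapt, STAR 2.5.2b, Cufflinks 2.1.1 and hg19 were used; their settings and the handling of strand are not given in the sources used here. The table deposited by the authors holds FPKM, a unit inferred from Cufflinks and the range of values, as its header names none. Columns were matched to samples by the library number that opens each title; no library is numbered 16.

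Rows sharing a gene name were summed (20368 rows, 20218 names). Values were taken to log2(FPKM + 1), with a pseudocount of 1, and a gene was tested where 2 or more libraries reached 1 FPKM. Limma 3.58.1 in R 4.3.3 estimated the 6 group means from the 17 libraries together (empirical Bayes with a trend, 11 residual degrees of freedom), and p-values were adjusted by Benjamini-Hochberg over 14845 genes within each of 9 comparisons, at a threshold of 0.05. The script was tested on simulated data. The genes and lists were chosen with earlier results of these data known. No p is given for the 10 genes in the 4 comparisons that chose them, and comparisons that share a population share its libraries. Named beside the 10 were up to 2 called genes of each direction per pathway list with the smallest adjusted p and, on average, 1 FPKM or more in the higher group, flanking genes, genes among the 3 with the highest r (some are not reported here), and leading or absent markers; overlapping genes were added after their values were seen. Figures were drawn with matplotlib 3.10.9. Alternatives were another pseudocount (0.1), no filter, a filter at 5 FPKM, 2 other scalings, smaller fits, zeros set to missing and libraries left out. In 33 genes 41 values were listed at 0 although all other libraries of the group had at least 5 FPKM; none is in the 10.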

Additional observations from a re-analysis of the deposited data

How the results depend on the processing

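The labels state no pairing and give the groups no shared replicate numbers. A replicate block on sets of consecutive library numbers, added after the data were seen, could be fitted only within a day; the deviations of libraries in a set correlated from -0.123 to 0.458. It moved no count of called genes within a day by over 1.5 times and, of the 10 genes, ended no call and added ALOX5 between GFP-mCherry+ and GFP-mCherry- cells at day 40 (adjusted p = 0.0467 in limma, in a range of 0.0364 to 0.364 over all settings).

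Between days, 602 genes were called in GFP+mCherry+ cells, 348 with the filter at 5 FPKM, 208 with only the compared groups fitted and 293 without libraries 13 and 14. In GFP-mCherry+ cells 675 were called, 449 without a filter, 439 with quantile normalization, 11 with only the compared groups and 112 without libraries 13 and 14. In GFP-mCherry- cells 575 were called, 337 at a pseudocount of 0.1 and 378 with the filter at 5 FPKM. At day 40 GFP+mCherry+ cells differed from GFP-mCherry+ cells in 3783 genes, 1304 with only the compared groups and 1858 without libraries 13 and 14, and from GFP-mCherry- cells in 1751 genes, 525 and 661 under these settings. With quantile normalization 1830 genes were higher and 1835 lower in the first of these, against 2404 and 1379, and the median of all genes moved to -0.06, against 0.08. The cause was not tested, except that smaller fits hold fewer libraries.

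With each library left out in turn, counts between days ran from 246 to 1038 in GFP+mCherry+ cells, 78 to 1621 in GFP-mCherry+ cells and 154 to 701 in GFP-mCherry- cells. GFP+mCherry+ cells gave 1241 to 4237 calls against GFP-mCherry+ cells at day 40 and 1766 to 3339 at day 25, and 546 to 2070 against GFP-mCherry- cells at day 40 and 859 to 1815 at day 25. The lowest of each at day 40 came without library 13.

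Some differences of the 10 genes that were not called turned sign. Without libraries 13 and 14, day 40 against day 25 in GFP-mCherry+ cells gave -0.60 for SLC5A12, -0.042 for LCNL1, -0.12 for ERVFRD-1 and -0.11 for CARD16, and FPGT gave -0.044 between the GFP- populations at day 40. Median-of-ratios scaling and quantile normalization gave 0.043 and 0.091 for LCNL1 between the GFP- populations at day 25, and quantile normalization gave 0.041 for ALOX5 between days in GFP-mCherry+ cells and -0.002 for FPGT between days in GFP-mCherry- cells. With a library left out, values between the GFP- populations at day 25 ran from -0.74 to 0.39 for SLC5A12, -0.33 to 0.17 for LCNL1, -0.70 to 0.17 for ALOX5 and -0.024 to 0.19 for CHI3L1, and at day 40 from -0.044 to 0.078 for FPGT. Between days in GFP-mCherry+ cells they ran from -0.60 to 0.68 for SLC5A12, -0.052 to 0.45 for LCNL1, -0.12 to 0.70 for ERVFRD-1, -0.12 to 0.52 for CARD16 and -0.29 to 0.10 for ALOX5, and in GFP-mCherry- cells from -0.026 to 0.76 for ERVFRD-1, -0.005 to 0.056 for FPGT and -0.088 to 0.39 for CSF3R. No called difference of the 10 changed sign.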
